A study of Homo sapiens with 8 samples.

Results

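The desmosome genes described here are 9 of the 58336 gene identifiers in the count table: the plakin gene DSP, the armadillo-repeat plaque genes JUP, PKP1, PKP2, PKP3 and PKP4, and the desmosomal cadherin genes DSG2, DSC2 and DSC3. They were picked by symbol, and each symbol matched 1 identifier. Desmosomes are button-like junctions that fasten the intermediate filaments of neighbouring epithelial and heart muscle cells to each other. Desmogleins and desmocollins are cadherins that meet across the gap between cells, plakoglobin (the product of JUP) and the plakophilins bind the cadherin tails inside the cell, and desmoplakin (the product of DSP) ties this plaque to keratin, or in some cells to desmin or vimentin. Breast epithelium carries desmosomes, and their genes are often followed when carcinoma cells move between epithelial and mesenchymal states.

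All libraries were made from SUM159, a triple-negative human breast cancer line with many mesenchymal features, in 3 groups. The lung-recovered group (3 libraries) is ITGB4-low clone 1, given to mice by tail vein. These mice received bleomycin through the trachea, and the cells were dissociated from the lungs, kept in dishes overnight and sorted for tdTomato before RNA was taken. The ITGB4-low group (3 libraries) is clone 1 grown in dishes, and the ITGB4-high group (2 libraries) is ITGB4-high cells grown in dishes. All ITGB4-low and lung-recovered libraries descend from 1 clone, so what belongs to the clone and what to low ITGB4 cannot be told apart. The passage through the mouse, bleomycin, dissociation, overnight culture and sorting also cannot be told apart, since cells from lungs without bleomycin were not analysed here. Neither cultures nor animals are named for the libraries, which are labelled biological replicates, so the p-values reflect only how far these libraries vary.

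Library totals ran from 20.41 to 27.22 M counts (M, 1e6), and 15220 genes had enough counts to be tested. VIM averaged 4380, 4560 and 4830 CPM (counts after scaling each library to a total of 1e6) in lung-recovered, ITGB4-low and ITGB4-high cells. In the same order, FN1 averaged 2820, 5340 and 1940 CPM, CDH2 139, 256 and 81.6, ZEB1 98.7, 136 and 72.9, and CD44 663, 669 and 446. FN1, CDH2 and ZEB1 were lower in lung-recovered than in ITGB4-low cells (edgeR adjusted p under 0.05). With CD44, they were higher in both groups of clone 1 than in ITGB4-high cells. CDH1, the epithelial cadherin gene, and PGR had 0 counts in all 8 libraries, EPCAM had 6 and ESR1 had 7. ERBB2 stood at 67.3, 66.4 and 67.5 CPM in lung-recovered, ITGB4-low and ITGB4-high cells.

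Of the 9 genes, 5 were expressed at levels that could be tested (DSG2, PKP4, PKP3, JUP and DSP), and 4 were at or near 0 in every library (PKP1, PKP2, DSC2 and DSC3). Among the 9 genes, the transcripts present were thus those of a desmoglein, a pair of plakophilins, plakoglobin and desmoplakin, with hardly any of a desmocollin. Among the 5 tested genes, the largest differences were in 2 plaque genes, DSP and JUP. DSP had 75.2 ± 2.64 CPM in lung-recovered cells, 11.3 ± 0.519 CPM in ITGB4-low cells (SD, n = 3 each) and 39.5 ± 0.880 CPM in ITGB4-high cells (n = 2), and JUP followed the same order. DSG2, the abundant cadherin, was called different in none of the 3 comparisons (edgeR adjusted p = 0.218, 0.799 and 0.130).

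**Figure D1:**
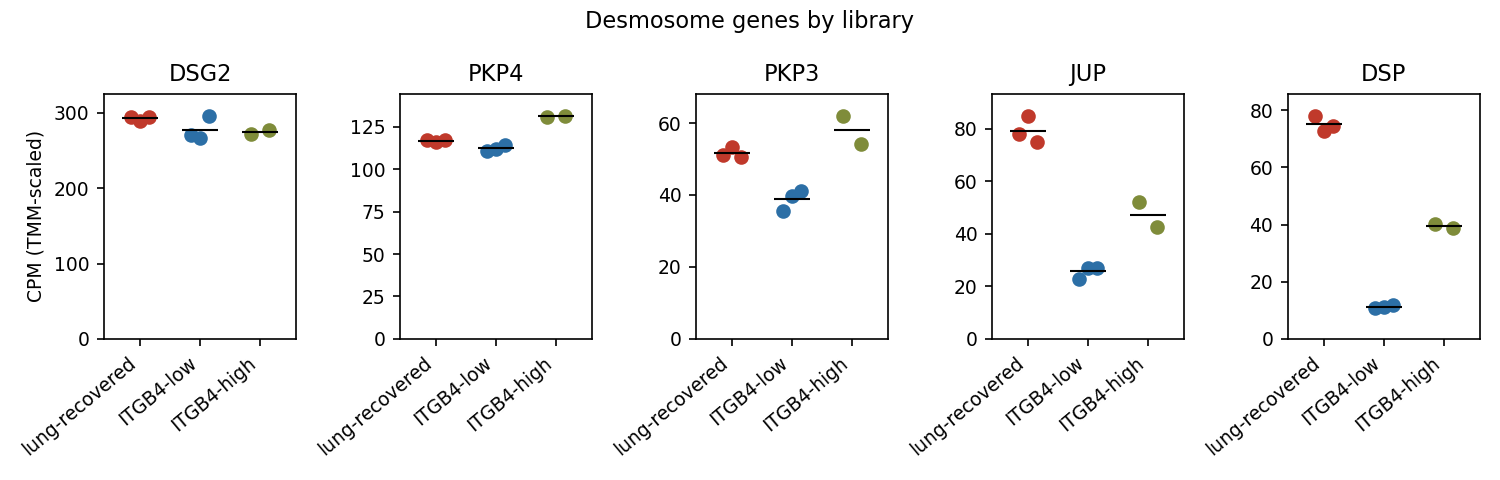
CPM after TMM scaling (vertical axis, from 0) of the 5 tested desmosome genes in each library, with a line at the group mean. The 3 lung-recovered libraries sit above all others for DSP and JUP, and the ITGB4-low libraries are lowest for DSP, JUP, PKP3 and PKP4, while the DSG2 libraries all lie between 266.8 and 296.2 CPM.

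DSP (ENSG00000096696, hg38 chromosome 6, 7541575 to 7586717, plus strand) encodes desmoplakin, the plakin that links the desmosomal plaque to intermediate filaments. It had 78.06, 72.86 and 74.63 CPM in the lung-recovered libraries, 10.93, 11.02 and 11.87 CPM in the ITGB4-low libraries and 40.13 and 38.89 CPM in the ITGB4-high libraries. No group overlapped another, and the spread within each group was small beside the distance between groups. DSP was 6.65-fold higher in lung-recovered than in ITGB4-low cells (log2 fold change 2.73 ± 0.06 SE, edgeR quasi-likelihood adjusted p = 1.67e-17). In ITGB4-low cells it stood at 0.286 times its ITGB4-high level (-1.81 on the log2 scale, SE 0.07, edgeR adjusted p = 2.29e-14). Lung-recovered cells also exceeded ITGB4-high cells by 1.90-fold (log2 fold change 0.93, SE 0.06, edgeR adjusted p = 7.08e-11). In bulk RNA a change in the share of cells that express a gene and a change in the amount per cell cannot be told apart, here and for every gene below.

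JUP (ENSG00000173801, chromosome 17, 41754604 to 41786931, minus strand) encodes plakoglobin, an armadillo-repeat relative of beta-catenin that joins desmosomal cadherins to desmoplakin and is also found in adherens junctions. It had 77.97, 84.87 and 74.82 CPM in the lung-recovered libraries, 22.88, 27.10 and 27.04 CPM in the ITGB4-low libraries and 52.01 and 42.63 CPM in the ITGB4-high libraries. These groups did not overlap either, although the ITGB4-high libraries lay further apart for JUP than for DSP. JUP was 3.08-fold higher in lung-recovered than in ITGB4-low cells (1.62 on the log2 scale, SE 0.08, edgeR adjusted p = 1.96e-12). It was lower in ITGB4-low than in ITGB4-high cells (-0.88, SE 0.09, edgeR adjusted p = 3.69e-08) and higher in lung-recovered than in ITGB4-high cells (0.74, SE 0.08, edgeR adjusted p = 2.01e-07).

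Start regions are shown so that DSP and JUP, the 2 members with the largest differences, can be read beside DSG2 and DSG3, 2 desmogleins of 1 locus. DSG2 was not called, and DSG3, described below, was detected mostly in lung-recovered cells. PKP3 and PKP4, described below, also had calls, but PKP3 had no entry and the windows of PKP4 are not printed. Each sequence is RefSeq's window (GRCh38.p14) of 250 bases before to 50 after a gene's start, 5′ to 3′ on the gene's own strand. Capitals mark CAGGTG (the E-box read by ZEB and SNAIL factors), TGANTCA (AP-1) and GGGCGG (GC box), each searched on both strands, so that the reverse complement is also in capitals.
DSP, chr6:7541421-7541720, plus strand: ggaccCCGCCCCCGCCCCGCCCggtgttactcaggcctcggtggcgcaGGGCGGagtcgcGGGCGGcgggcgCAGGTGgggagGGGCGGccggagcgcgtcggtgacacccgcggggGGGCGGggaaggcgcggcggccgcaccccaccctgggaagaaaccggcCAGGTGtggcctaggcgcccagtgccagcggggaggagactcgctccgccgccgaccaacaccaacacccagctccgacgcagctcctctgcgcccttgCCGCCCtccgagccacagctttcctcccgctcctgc
JUP, chr17:41786662-41786961, minus strand: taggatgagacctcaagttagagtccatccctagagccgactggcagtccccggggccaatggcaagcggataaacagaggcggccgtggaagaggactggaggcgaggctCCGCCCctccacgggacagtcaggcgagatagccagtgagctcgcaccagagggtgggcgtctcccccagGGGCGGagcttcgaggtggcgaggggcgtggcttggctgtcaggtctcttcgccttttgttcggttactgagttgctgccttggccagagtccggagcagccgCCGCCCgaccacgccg
DSG2, chr18:31497927-31498226, plus strand: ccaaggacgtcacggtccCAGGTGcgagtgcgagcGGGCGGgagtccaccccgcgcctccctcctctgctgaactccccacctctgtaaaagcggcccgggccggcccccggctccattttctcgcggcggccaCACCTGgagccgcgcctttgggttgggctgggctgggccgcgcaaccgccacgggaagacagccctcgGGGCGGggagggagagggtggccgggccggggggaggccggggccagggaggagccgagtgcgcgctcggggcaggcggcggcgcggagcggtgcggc
DSG3, chr18:31447491-31447790, plus strand: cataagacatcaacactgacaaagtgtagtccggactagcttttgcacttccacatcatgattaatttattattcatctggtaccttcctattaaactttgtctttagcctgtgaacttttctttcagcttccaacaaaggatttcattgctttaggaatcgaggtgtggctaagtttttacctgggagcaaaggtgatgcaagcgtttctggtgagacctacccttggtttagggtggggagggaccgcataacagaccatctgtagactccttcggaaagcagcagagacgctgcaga

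The DSP window held CAGGTG 2 times and GGGCGG 8 times, and 2 of these GC boxes shared a base. The DSG2 window also held CAGGTG 2 times, with 2 GC boxes. The JUP window printed here held no CAGGTG and 3 GC boxes, while RefSeq's other JUP window held CAGGTG 2 times and no GC box. The DSG3 window held none of the 3 motifs, and TGANTCA was in no window of the 7 members listed there or of DSG3. Among all 35116 windows of this length, 20.6% held CAGGTG, 7.71% TGANTCA and 45.0% GGGCGG. The windows of DSP and DSG2 were rich in G and C (77.0% and 76.7%, median of all windows 58.7%), with 37 and 36 CpG, and that of DSG3 was poor (44.0%, with 6 CpG). These matches describe letters in a window and were not tested for binding. PKP2 and PKP3 had no entry.

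The plakophilins are armadillo-repeat proteins of the p120 catenin family that widen and stabilise the plaque. PKP3 (ENSG00000184363, chromosome 11, 392614 to 404908), the plakophilin found in most epithelia, had 51.13, 53.38 and 50.57 CPM in lung-recovered, 35.50, 39.67 and 41.08 CPM in ITGB4-low and 62.01 and 54.28 CPM in ITGB4-high libraries. The ITGB4-low libraries were lowest and the ITGB4-high libraries highest, without overlap. PKP3 was 1.33-fold higher in lung-recovered than in ITGB4-low cells (log2 fold change 0.41, SE 0.06, edgeR adjusted p = 3.75e-05) and lower in ITGB4-low than in ITGB4-high cells (-0.58, SE 0.07, edgeR adjusted p = 4.71e-07). Its lower level in lung-recovered than in ITGB4-high cells passed narrowly (-0.17, SE 0.07, edgeR adjusted p = 0.0386). That call ended without ITGB4-high replicate 1 (-0.077, adjusted p = 0.450) or without lung-recovered replicate 1 or 3 (adjusted p = 0.105 and 0.113), and also with upper-quartile scaling (0.0528), the replicate block (0.0602) and DESeq2 (0.0642).

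PKP4 (ENSG00000144283, chromosome 2, 158456964 to 158682879) encodes a plakophilin-like protein found in desmosomes and adherens junctions. It had 117.5, 115.9 and 117.2 CPM in lung-recovered, 110.7, 111.9 and 114.3 CPM in ITGB4-low and 130.9 and 131.5 CPM in ITGB4-high libraries. The 2 groups of clone 1 lay close together without overlap, and both lay below ITGB4-high. The differences were small: 0.06 on the log2 scale for lung-recovered over ITGB4-low (95% interval -0.03 to 0.14, edgeR adjusted p = 0.320), -0.22 for ITGB4-low over ITGB4-high (SE 0.04, edgeR adjusted p = 2.68e-04) and -0.17 for lung-recovered over ITGB4-high (SE 0.04, edgeR adjusted p = 0.00393). An antisense gene, PKP4-AS1, shares 418 bases with PKP4 exons but had 6 counts in all libraries against 22715 for PKP4.

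PKP2 (ENSG00000057294, chromosome 12, 32790745 to 32896840), the plakophilin of simple epithelia and heart, had 1 count in each lung-recovered library, 2, 1 and 0 counts in the ITGB4-low libraries and 9 and 13 counts in the ITGB4-high libraries. Its transcripts were thus close to the detection limit, and mostly in ITGB4-high cells. The ratio of lung-recovered to ITGB4-high levels was 0.0994 (exact 95% counting interval 0.0191 to 0.331), and that of ITGB4-low to ITGB4-high was 0.107 (0.0204 to 0.355). The gene did not pass the low-count filter. With no filter it was called lower than in ITGB4-high cells in lung-recovered (edgeR adjusted p = 0.00215) and in ITGB4-low cells (edgeR adjusted p = 0.00292). PKP1 (ENSG00000081277, chromosome 1, 201283452 to 201332993), the plakophilin of the upper layers of stratified epithelia, had 1 count in all, in an ITGB4-low library. A count of 0 over the 3 lung-recovered libraries allows up to 0.0423 CPM.

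DSG2 (ENSG00000046604, chromosome 18, 31498043 to 31549008, plus strand), the desmoglein of simple epithelia and heart, was the most abundant of the set. It had 294.5, 289.5 and 294.5 CPM in lung-recovered, 270.9, 266.8 and 296.2 CPM in ITGB4-low and 272.7 and 277.1 CPM in ITGB4-high libraries. The ITGB4-low libraries spanned the others. The log2 difference was 0.07 for lung-recovered over ITGB4-low (95% interval -0.02 to 0.17, edgeR adjusted p = 0.218), 0.02 for ITGB4-low over ITGB4-high (-0.09 to 0.12, edgeR adjusted p = 0.799) and 0.09 for lung-recovered over ITGB4-high (-0.01 to 0.19, edgeR adjusted p = 0.130). These intervals leave room for differences of up to 0.19 on the log2 scale. The sign of the small ITGB4-low over ITGB4-high difference turned in 3 alternatives.

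The desmocollins, the other class of desmosomal cadherin, were all but undetected. DSC2 (ENSG00000134755, chromosome 18, 31058840 to 31102522), the desmocollin of most desmosome-bearing tissues, had 0 counts in the lung-recovered and ITGB4-low libraries and 3 and 1 counts in the ITGB4-high libraries. DSC3 (ENSG00000134762, chromosome 18, 30990008 to 31042815), the desmocollin of basal layers, had 0 counts in the lung-recovered and ITGB4-low libraries and 1 count in each ITGB4-high library. DSC1, which belongs to the upper epidermis, had 2, 2 and 1 counts over the lung-recovered, ITGB4-low and ITGB4-high groups. At this depth a count of 0 allows up to 0.0423 CPM in lung-recovered and 0.0450 CPM in ITGB4-low cells.

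Counted over the set, 3 of the 5 tested genes were higher and 0 lower in lung-recovered than in ITGB4-low cells, beside 14.7% of all tested genes called higher and 30.1% called either way. The median log2 fold change of the 5 was 0.41, against 0.00032 over all tested genes. In ITGB4-low against ITGB4-high cells 4 of the 5 were lower and 0 higher, beside 27.6% of all tested genes called lower and 56.2% called either way, with a median of -0.58 against 0.00090. In lung-recovered against ITGB4-high cells 2 were higher and 2 lower, beside 26.2% and 25.0% of all tested genes and 51.2% called either way, with a median of 0.09 against 0.0051. Libraries did not overlap for 4 of the 5 between lung-recovered and ITGB4-low cells, all higher in lung-recovered cells, beside 43.3% of all tested genes (21.6% higher and 21.6% lower). Between ITGB4-low and ITGB4-high cells they did not overlap for 4, all lower in ITGB4-low cells, beside 68.7% of all tested genes (34.8% higher and 33.9% lower). For lung-recovered against ITGB4-high cells there was no overlap for any of the 5, with 3 higher and 2 lower, beside 66.8% of all tested genes (34.2% higher and 32.6% lower). Members with too few counts are absent from these counts and medians, and the comparisons share libraries.

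**Figure D2:**
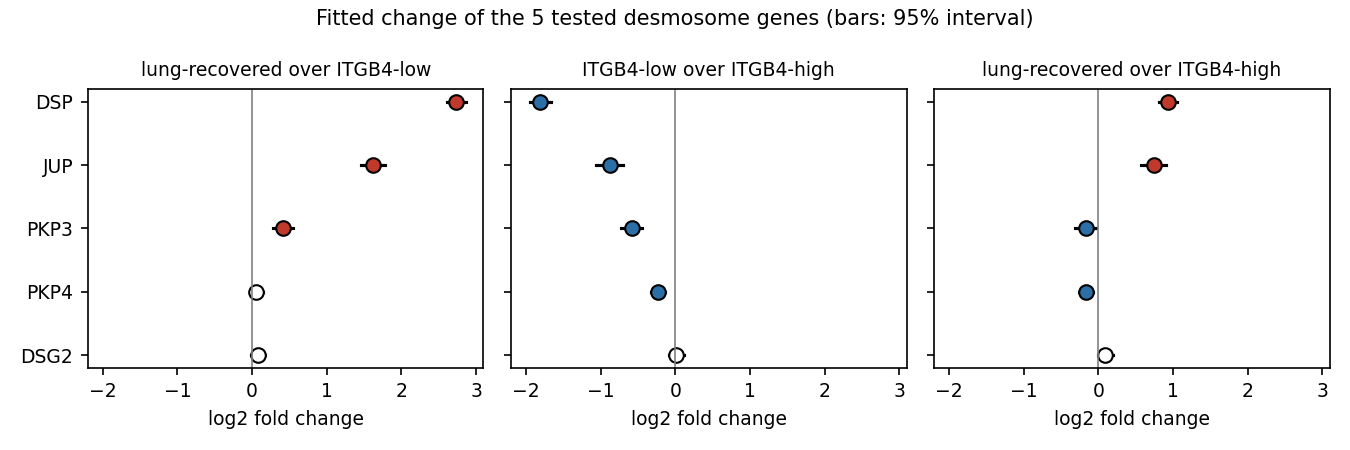
Log2 fold change (horizontal axis) of the 5 tested desmosome genes in the 3 comparisons, with 95% intervals as bars. Red points are called higher, blue points lower and open points neither at an edgeR adjusted p under 0.05. DSP and JUP reach 2.73 and 1.62 in lung-recovered over ITGB4-low, and the interval of DSG2 takes in 0 in every panel.

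Levels of different genes were compared per kilobase of merged exons, a scale that takes no account of which isoform was made. In lung-recovered cells the order was DSG2 (47.3 ± 0.465 CPM per kb), JUP (16.0 ± 1.04), PKP3 (13.65 ± 0.397), PKP4 (12.3 ± 0.0851) and DSP (7.45 ± 0.262; SD, n = 3). In ITGB4-low cells it was DSG2 (44.9 ± 2.58 CPM per kb), PKP4 (11.8 ± 0.193), PKP3 (10.2 ± 0.767), JUP (5.20 ± 0.490) and DSP (1.12 ± 0.0513; n = 3), so that JUP lay above both plakophilins in lung-recovered cells and below both in ITGB4-low cells. In ITGB4-high cells PKP3 (15.4 ± 1.44 CPM per kb) and PKP4 (13.8 ± 0.0424) followed DSG2 (44.4 ± 0.495), ahead of JUP (9.58 ± 1.35) and DSP (3.92 ± 0.0870; n = 2). In each group, no pair of genes next to each other in these orders had overlapping libraries.

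Ratios between genes within a library do not depend on library scaling. For each DSG2 transcript per kb there were 0.163, 0.154 and 0.155 of DSP in lung-recovered, 0.0247, 0.0253 and 0.0246 in ITGB4-low and 0.0902 and 0.0861 in ITGB4-high libraries. For JUP the ratio to DSG2 was 0.332, 0.367 and 0.318 in lung-recovered, 0.106, 0.127 and 0.114 in ITGB4-low and 0.239 and 0.193 in ITGB4-high libraries. The DSP and JUP ratios separated the groups in the same order as their levels. For PKP3 the ratio to DSG2 was 0.281 to 0.301 in lung-recovered, 0.214 to 0.243 in ITGB4-low and 0.320 and 0.372 in ITGB4-high libraries, again without overlap. For PKP4 it was 0.259 to 0.260 in lung-recovered and 0.251 to 0.273 in ITGB4-low libraries, which overlapped, and 0.308 and 0.312 in ITGB4-high libraries. DSP also changed relative to JUP, at 0.466 ± 0.0399 in lung-recovered, 0.216 ± 0.0175 in ITGB4-low and 0.413 ± 0.0488 in ITGB4-high cells. DSG2 took 48.0 to 49.7% of the summed CPM per kb of the 9 genes in lung-recovered, 59.9 to 62.1% in ITGB4-low and 49.7 and 52.4% in ITGB4-high libraries.

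**Figure D3:**
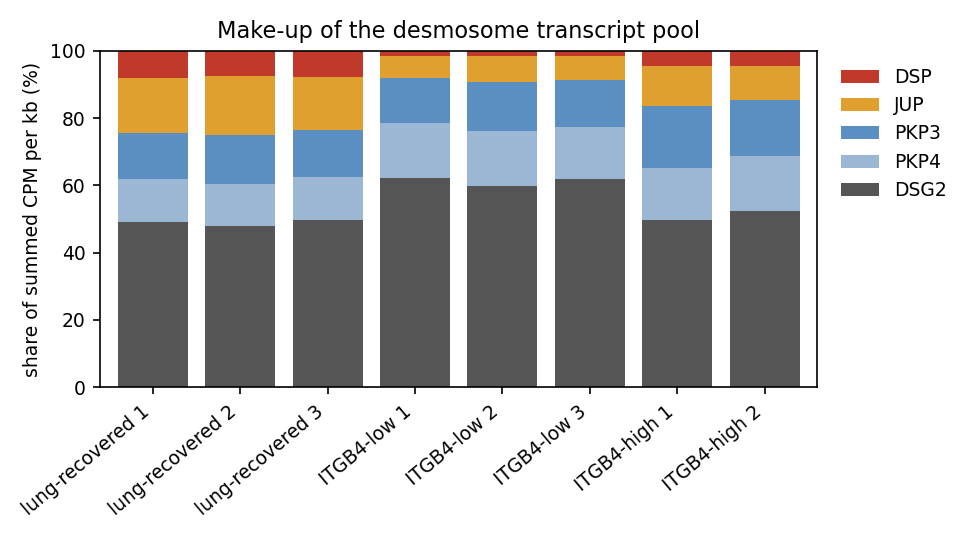
Share (%) of each tested desmosome gene in the summed CPM per kilobase of the 9 genes, for each library, with DSG2 at the bottom and DSP at the top. DSP takes 7.41 to 7.98% in the lung-recovered libraries, 1.52 to 1.54% in the ITGB4-low libraries and 4.48 to 4.51% in the ITGB4-high libraries.

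The desmogleins and desmocollins lie side by side on chromosome 18, between CDH2 and the galactosyltransferase gene B4GALT6. Within that row DSG2 had 20965 counts over the lung-recovered libraries, 18627 over ITGB4-low and 14342 over ITGB4-high, while its neighbour DSG3 (ENSG00000134757, 31447795 to 31478702), the desmoglein of basal keratinocytes and target antigen of pemphigus vulgaris, was detected mostly in lung-recovered cells. DSG3 had 33, 46 and 42 counts in the lung-recovered libraries, 1, 0 and 0 in the ITGB4-low libraries and 0 and 0 in the ITGB4-high libraries. The ratio of lung-recovered to ITGB4-low levels was 113 (exact 95% counting interval 19.9 to 4500), and DSG3 was called higher (edgeR adjusted p = 1.96e-07). Against ITGB4-high cells, with 0 counts, it was at least 29.4-fold higher over a floor of 3 counts for the group (edgeR adjusted p = 2.30e-07). These calls add little to the counts, since DSG3 passed the low-count filter through the lung-recovered libraries alone. It remained a minor transcript at 0.310 ± 0.0744 CPM per kb in lung-recovered cells, next to 47.3 for DSG2. DSG1, another epidermal desmoglein, had 3, 13 and 6 counts in lung-recovered libraries, 0, 1 and 7 in ITGB4-low libraries and 0 and 2 in ITGB4-high libraries. Lung-recovered and ITGB4-low libraries overlapped (ratio 2.57, exact 95% counting interval 1.1 to 6.67), while all lung-recovered libraries lay above the ITGB4-high ones (ratio 8.02, 1.97 to 70.4). DSG1 had too few counts to test, and DSG4 had 0 counts in all.

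Of the 11 other genes fixed for this locus 6 could be tested, DSG3 among them only through its lung-recovered counts. Between lung-recovered and ITGB4-low cells 3 were higher (DSG3 by most) and 1, the mesenchymal cadherin gene CDH2, was lower (log2 fold change -0.89, SE 0.04, edgeR adjusted p = 4.70e-12). Between ITGB4-low and ITGB4-high cells 3 were higher and 0 lower, led by the ubiquitin ligase gene RNF125 (2.59, SE 0.13, edgeR adjusted p = 1.05e-12). Between lung-recovered and ITGB4-high cells 5 were higher and 0 lower, again led by DSG3. The medians in these comparisons were 0.11, 1.02 and 0.60. Beside them, 30.1%, 56.2% and 51.2% of all tested genes were called either way, so that 3 of 6 in ITGB4-low against ITGB4-high cells is near the share of all genes.

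**Figure D4:**
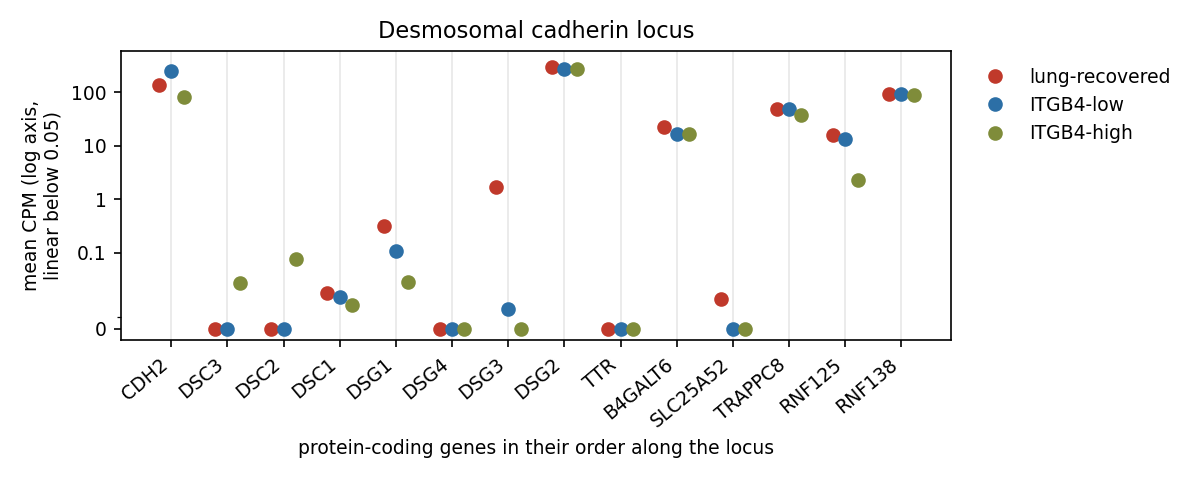
Mean CPM (log axis, linear below 0.05) of the protein-coding genes of the desmosomal cadherin locus in their order along chromosome 18, by group. DSG2 stands near 293, 278 and 275 CPM in lung-recovered, ITGB4-low and ITGB4-high cells, the desmocollins lie below 0.1 CPM, and DSG3 reaches 1.71 CPM in lung-recovered cells.

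Position was also examined for the tested members, a description chosen after the data were seen. Of 54 tested genes that start within 5 Mb of DSP, 6 were higher and 7 lower in lung-recovered than in ITGB4-low cells, with a median log2 fold change of 0.03. Without lung-recovered replicate 3 the count of higher neighbours was 3. For JUP 32 of 177 neighbours were higher and 27 lower, with a median of 0.02. These shares within 5 Mb, 11.1% and 13.0% for DSP and 18.1% and 15.3% for JUP, are near the 14.7% and 15.4% of all tested genes. Within 1 Mb of DSP, 0 of 12 neighbours were called. Within 1 Mb of JUP, 9 of 42 (21.4%) were higher and 3 (7.14%) lower, with a median of 0.06. Among them KRT14 and KRT17, which start 0.172 and 0.135 Mb from JUP, rose by 5.85 and 4.48 on the log2 scale. KRT15, at 0.241 Mb, was not called (-0.13). The part of such neighbours in the rise of JUP was not tested. The neighbours of PKP3 shifted more: 41 of 77 (53.2%, against 14.7% of all tested genes) were higher and 7 lower, with a median of 0.25. Within 1 Mb 28 of 43 were higher and 0 lower, with a median of 0.36, next to 0.41 for PKP3 itself. The part of this regional shift in the rise of PKP3 was not tested. Between ITGB4-low and ITGB4-high cells the neighbours of PKP3 within 5 Mb had a median of 0.04 (14 higher and 22 lower). Those within 1 Mb had a median of -0.11 (6 higher and 16 lower of 43), against -0.58 for PKP3. Of all tested genes, 28.6% were higher and 27.6% lower there. Between lung-recovered and ITGB4-high cells the neighbours within 1 Mb had a median of 0.29 (21 higher and 5 lower of 43), while PKP3 was at -0.17. In that comparison 26.2% of all tested genes were higher and 25.0% lower. Around PKP4, 5 of 22 neighbours were higher and 3 lower in lung-recovered than in ITGB4-low cells, with a median of 0.05, next to 0.06 for PKP4. Against ITGB4-high cells 12 of them were higher and 2 lower in lung-recovered cells, with a median of 0.28, while PKP4 was at -0.17. Around DSG2, 16 of 30 neighbours were higher and 1 lower in ITGB4-low than in ITGB4-high cells, beside 28.6% and 27.6% of all tested genes. Their median was 0.41, while DSG2 itself was at 0.02.

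**Figure D5:**
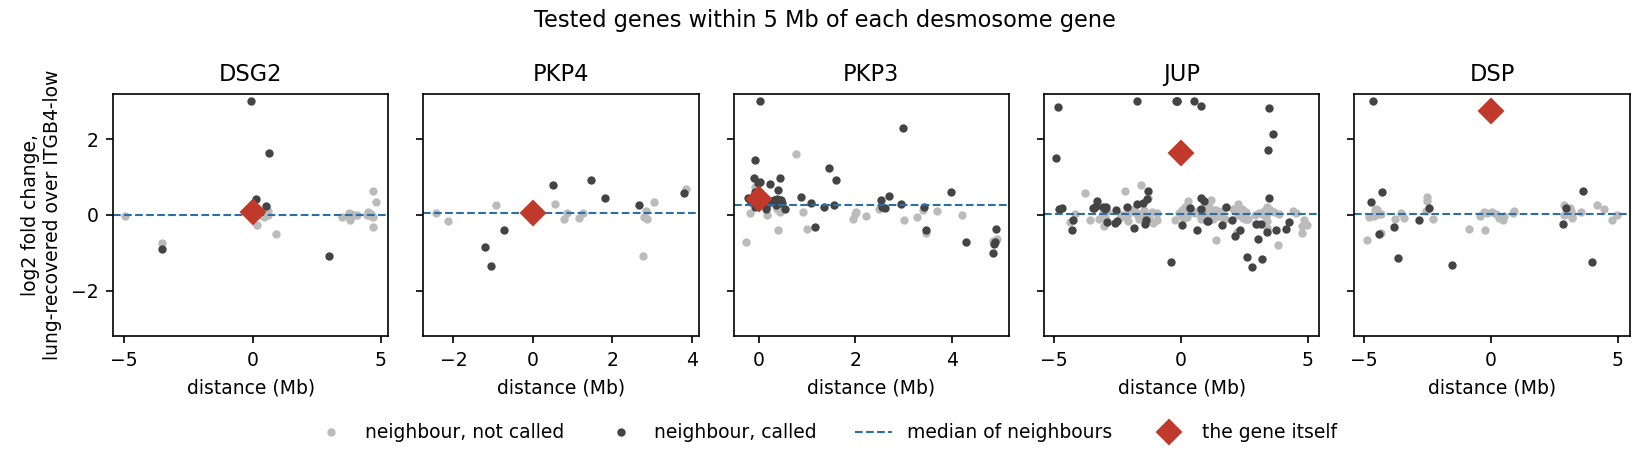
Log2 fold change, lung-recovered over ITGB4-low, of tested genes within 5 Mb of each desmosome gene (horizontal axis, distance between gene starts in Mb). Dark points are called, the dashed line is the neighbours' median and the diamond is the gene itself, and 8 points beyond 3 are drawn at that value. DSP and JUP lie far above medians of 0.03 and 0.02, while PKP3 at 0.41 lies near a median of 0.25.

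Of 9 other desmosomal and cornified-layer plaque genes, 4 could be tested (DSG3, PPL, KAZN and PERP). Apart from DSG3, none was called between lung-recovered and ITGB4-low cells. PPL, which encodes periplakin, a plakin of the cornified envelope, had 1, 0 and 0 counts in lung-recovered libraries, 0, 2 and 2 in ITGB4-low libraries and 104 and 105 in ITGB4-high libraries. Its ratio to the ITGB4-high level was 0.00349 in lung-recovered cells (exact 95% counting interval 8.79e-05 to 0.0197) and 0.0150 in ITGB4-low cells (0.00404 to 0.0389), and it was called lower in both (edgeR adjusted p = 1.94e-10 and 3.77e-10). PPL passed the low-count filter through the ITGB4-high libraries alone, so these calls add little to its counts. Between lung-recovered and ITGB4-low cells PPL was not called (edgeR adjusted p = 0.322), and whether its response differed from that of DSP was not tested. KAZN, a periplakin-binding protein gene, had 5.08 ± 0.448 CPM in lung-recovered, 4.22 ± 0.313 CPM in ITGB4-low and 9.47 ± 0.164 CPM in ITGB4-high cells, and was called lower than ITGB4-high in both groups of clone 1 (-0.90 and -1.16). PERP, a tetraspan desmosome protein gene, had 103.9 ± 4.88, 106.8 ± 1.16 and 113.3 ± 2.65 CPM in the same order. Its call against ITGB4-high (lung-recovered lower by -0.13, edgeR adjusted p = 0.0416) ended in 8 alternatives. KAZN and PERP were picked after their values were seen. EVPL had 6, 0 and 0 counts and CDSN 19, 21 and 14 counts over the lung-recovered, ITGB4-low and ITGB4-high groups, too few to test. The medians of the 4 were 0.11, -0.62 and -0.51 for lung-recovered over ITGB4-low, ITGB4-low over ITGB4-high and lung-recovered over ITGB4-high. Calls either way were made for 30.1%, 56.2% and 51.2% of all tested genes in these comparisons, so 1 of 4 in the first is near the share of all genes.

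Among 7 plakin genes, the family of filament linkers that includes DSP, 5 could be tested. DSP was the member called higher in lung-recovered than in ITGB4-low cells, and DST, which anchors hemidesmosomes, was lower (-0.67, SE 0.13, edgeR adjusted p = 3.30e-04; -0.40 without ITGB4-low replicate 1). The median was -0.28. In ITGB4-low against ITGB4-high cells DST was higher (0.39, edgeR adjusted p = 0.0230) and PPL and DSP were lower, with a median of 0.12. That call of DST ended without ITGB4-low replicate 1 (0.12, adjusted p = 0.125), without ITGB4-high replicate 1 or 2 (adjusted p = 0.139 and 0.0874) and with DESeq2 (0.220). Between lung-recovered and ITGB4-high cells DSP was higher and PPL lower, with a median of -0.06. Of all tested genes, 30.1%, 56.2% and 51.2% were called either way in these comparisons, in that order, so the plakin counts are near those shares. PLEC, which encodes the most abundant of these by CPM per kb, plectin, had 45.1 ± 3.36, 45.4 ± 7.22 and 41.8 ± 5.80 CPM per kb in lung-recovered, ITGB4-low and ITGB4-high cells and was not called in any comparison.

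Catenins of adherens junctions, the junctions that lie beside desmosomes, were counted in the same way. Between lung-recovered and ITGB4-low cells 0 of 7 tested genes were higher and 1 was lower, the alpha-catenin gene CTNNA3 (0.0298 ± 0.0259 against 0.465 ± 0.221 CPM, edgeR adjusted p = 5.53e-04). CTNNA3 passed the low-count filter through the ITGB4-low libraries alone, and its calls add little to its levels. It was not tested in 4 alternatives, which left no call in this list. Between ITGB4-low and ITGB4-high cells 6 were higher and 0 lower (median 0.37), and by fold CTNNA3 led (2.00, SE 0.63, edgeR adjusted p = 0.0114). That call ended without ITGB4-high replicate 1 or 2 (adjusted p = 0.0750 and 0.0672), with the replicate block (0.0644) and with DESeq2 (0.0608). Between lung-recovered and ITGB4-high cells 5 were higher and 0 lower (median 0.27), led by the vinculin gene VCL (0.71, SE 0.07, edgeR adjusted p = 5.44e-08). Of all tested genes, 14.7% were higher and 15.4% lower in the first of these comparisons, so 0 and 1 of 7 are near those shares. The other 2 comparisons had 28.6% and 26.2% of all tested genes called higher.

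Of 17 factors of desmosome assembly and turnover, all were tested. Between lung-recovered and ITGB4-low cells 4 were higher and 4 lower, with a median of 0.02. The kinesin gene KIF3B rose (0.27, SE 0.05, edgeR adjusted p = 1.87e-04) and ERBIN, whose product binds ERBB2 and plakophilin-family proteins, fell (-0.36, SE 0.04, edgeR adjusted p = 9.00e-07). Between ITGB4-low and ITGB4-high cells 6 were higher and 9 lower (median -0.14), with the caveolin gene CAV1 at 0.64 (SE 0.06, edgeR adjusted p = 1.58e-08) and the kinase gene GSK3B at -0.93 (SE 0.05, edgeR adjusted p = 1.57e-12). Between lung-recovered and ITGB4-high cells 5 were higher and 7 lower (median -0.06), with the same genes at the ends, CAV1 at 0.42 and GSK3B at -0.94. Of all tested genes, 14.7% were higher and 15.4% lower in the first of these comparisons, 28.6% and 27.6% in the second and 26.2% and 25.0% in the third.

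Of 11 intermediate filament genes whose products desmosomes can hold, 9 were tested. Between lung-recovered and ITGB4-low cells 6 were higher and 0 lower (median 0.60), all of them keratins. The basal keratin gene KRT5 led, with 42.3 ± 4.04 CPM in lung-recovered and 0.222 ± 0.117 CPM in ITGB4-low cells (log2 fold change 7.52, SE 0.17, edgeR adjusted p = 2.17e-17). Against ITGB4-high cells, ITGB4-low cells had 2 higher, KRT15 by most (3.17, SE 0.53; 2.35 without ITGB4-high replicate 1 and 5.04 without ITGB4-high replicate 2), and 4 lower, KRT14 by most (-4.44, SE 0.39), with a median of -0.08. Between lung-recovered and ITGB4-high cells 6 were higher, KRT5 by most (4.78, SE 0.14), and 2 lower, KRT6A by most (-1.10, SE 0.13), with a median of 1.26. KRT6A and KRT14 have near-identical copies, and how shared reads were counted is not given in the sources used here. DES had too few counts to test. Calls in either direction were made for 30.1%, 56.2% and 51.2% of all tested genes in these 3 comparisons.

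The genes whose pattern over the 8 libraries was nearest to each of the 3 members with the largest change were found by the root mean square difference of log2 CPM after centring each gene on its own mean, among 9516 other genes with at least 10 CPM. Nearest to DSP were ICAM1 (difference 0.195), PTPRE (0.258), CRIP2 (0.272), SH3PXD2A (0.289) and ABCA1 (0.338). ICAM1 averaged 202, 29.0 and 137 CPM in lung-recovered, ITGB4-low and ITGB4-high cells. Nearest to JUP were TINAGL1 (0.172), SOD2 (0.172), the pseudogene FKBP9P1 (0.173), CXCL2 (0.181) and MAP3K5 (0.187), with SOD2 at 1960, 771 and 1340 CPM in that order. Nearest to PKP3 were TMEM189 (0.0411), RPLP2 (0.0450), GNPDA1 (0.0532), AGTRAP (0.0540) and GPAM (0.0565), of which RPLP2 starts 0.417 Mb from PKP3. The difference is not scaled to the size of a gene's change. The smaller values for PKP3, which changed less, thus do not show a closer match of pattern. These distances describe 8 libraries in 3 groups and were not tested. FKBP9P1 can share reads with its parent gene.

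Marker lists of other cell types were summed. The host lung is a mouse lung and the reads were aligned to the human genome, so a mouse transcript is counted only in so far as it resembles the human one, and low or absent counts here do not measure how many mouse cells a sort carried along. Of 14 lung epithelium markers 6 had 0 counts in all libraries, among them SFTPA1, SFTPD and SCGB1A1, while SFTPB had 1 count and SFTPC 2 in all. The summed level of the list was 36.8 to 38.5 CPM in lung-recovered, 33.6 to 34.5 in ITGB4-low and 4.09 to 4.56 in ITGB4-high libraries, mostly from ABCA3 (35.2, 31.6 and 2.41 CPM). LAMP3 was higher in lung-recovered than in ITGB4-low cells (1.60 against 0.398 CPM, edgeR adjusted p = 6.38e-05). NKX2-1 was lower (0.0671 against 1.04 CPM, edgeR adjusted p = 1.38e-05), and ABCA3 and AGER were not called there (edgeR adjusted p = 0.0628 and 0.983). Heart muscle markers, of interest because heart is rich in desmosomes, summed to at most 0.0946 CPM in lung-recovered, 0.0971 CPM in ITGB4-low and 0.0779 CPM in ITGB4-high libraries. Epidermal markers summed to 47.2 to 54.7 CPM in lung-recovered, 52.8 to 58.0 in ITGB4-low and 49.3 to 56.4 in ITGB4-high libraries, of which KRT10 gave 50.1, 55.0 and 52.8, and KRT1, LOR and FLG had 0 counts. Myeloid markers summed to 8.04 to 8.99 CPM in lung-recovered, 6.44 to 6.85 in ITGB4-low and 3.74 to 4.98 in ITGB4-high libraries, mostly from CD68. MARCO was higher in lung-recovered than in ITGB4-low cells (1.46 against 0.788 CPM, edgeR adjusted p = 0.0271). CD68, ADGRE1 and PTPRC were not called there (edgeR adjusted p = 0.228, 0.152 and 0.752). PTPRC had 55, 58 and 0 counts over the lung-recovered, ITGB4-low and ITGB4-high groups. ITGAM had 18 counts in lung-recovered and 4 in ITGB4-low libraries, too few to test, and LYZ had 0 and 3. Fibroblast and smooth muscle markers summed to 163 to 170 CPM in lung-recovered, 58.5 to 69.5 in ITGB4-low and 58.8 to 68.2 in ITGB4-high libraries. Of these COL1A1 gave 101, 30.7 and 28.1 CPM, PDGFRA 36.5, 3.51 and 9.37, and COL1A2 0.0408, 0.0162 and 0.0390. COL3A1, at a lower level, was also higher in lung-recovered than in ITGB4-low cells (1.83 against 0.490 CPM, edgeR adjusted p = 5.93e-05). PDGFRB, ACTA2 and DCN did not follow. PDGFRB was lower in lung-recovered than in ITGB4-low cells (10.7 against 13.8 CPM, edgeR adjusted p = 0.00698), and ACTA2 and DCN were not called there (edgeR adjusted p = 0.443 and 0.568). Against ITGB4-high cells COL3A1 and PDGFRB were higher in lung-recovered cells, while ACTA2 (12.9 against 16.8 CPM) and DCN (2.65 against 5.86 CPM) were lower. Endothelial markers summed to 2.78 to 3.40 CPM in lung-recovered, 3.59 to 5.63 in ITGB4-low and 3.23 to 3.96 in ITGB4-high libraries, with CLDN5 at 0. KDR and TEK were lower in lung-recovered than in ITGB4-low cells (edgeR adjusted p = 0.00443 and 0.0116). PECAM1 had 25 counts in lung-recovered and 10 in ITGB4-low libraries, and EMCN 6 and 0, too few to test. Lymphocyte and erythroid markers summed to at most 0.126 and 0 CPM in lung-recovered libraries. The part of the fibroblast genes in the desmosome results was not tested.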

How the data were processed

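Sample titles gave each library's group and number (3 lung-recovered, 3 ITGB4-low and 2 ITGB4-high libraries). The deposited values are raw counts of reads per Ensembl gene, from poly(A) RNA and dUTP libraries per the labels' protocols. Alignment used STAR 2.7.1a on hg38, per the submitters' processing notes. For the counting step, no program, strand setting or annotation is given in the sources used here. Symbols, coordinates and exon lengths came from GENCODE release 29, which matched 58216 of 58336 identifiers.

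All 8 libraries entered 1 edgeR 4.0.16 fit (R 4.3.3) with a term per group, TMM scaling (factors 0.975 to 1.012) and filterByExpr, which kept 15220 genes. Each pair of groups was compared by quasi-likelihood F test, with p-values Benjamini-Hochberg adjusted over all tested genes, and called at an adjusted p under 0.05. Intervals for sparse genes are exact binomial (95%), floors are 3 counts per group, and both cover counting error only. The members and gene lists were chosen with earlier results of these data known, so lists are described by counts and medians. Each list's furthest called gene in either direction was named. No replicate pair within a group matched to within counting noise (1.57 to 6.13 chi-square units per degree of freedom). Alternatives were DESeq2 1.42.0, limma-voom (limma 3.58.1), other scalings and filters, fits of 2 groups, a replicate block and leaving out each library.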

Additional observations from a re-analysis of the deposited data

How the results depend on the processing

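Over 16 alternatives, desmosome genes called numbered 3 throughout for lung-recovered against ITGB4-low cells, 4 to 5 for ITGB4-low against ITGB4-high cells and 3 to 5 for lung-recovered against ITGB4-high cells. All genes called ranged from 3532 to 4748, 7400 to 8635 and 6623 to 8145 in these comparisons. DSP kept its calls, with log2 fold changes of 2.71 to 2.77, -1.84 to -1.78 and 0.90 to 0.95, and JUP its own, with 1.55 to 1.66, -1.02 to -0.74 and 0.60 to 0.89. The uncalled DSG2 difference of ITGB4-low over ITGB4-high turned to -0.011 with the replicate block, -0.0040 without ITGB4-high replicate 1 and -0.029 without ITGB4-low replicate 3, within a range of -0.029 to 0.036 when 1 library was left out; the cause was not tested. Replicate numbers did not pair the samples (correlations of same-numbered deviations -0.0748 to 0.0400). With the replicate block 4146, 7990 and 7213 genes were called, against 4586, 8554 and 7789 without it. Counts of 0 leave levels up to 0.0423, 0.0450 and 0.0565 CPM possible in lung-recovered, ITGB4-low and ITGB4-high cells.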
